A study of Mus musculus with 4 samples.

Results

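Unc45b, Dhx40, Pctp, Trim16, Gdpd1, Ublcp1, Fbxw10, B9d1, Ttc19 and Zzef1 are 10 genes that lie on mouse chromosome 11, as does Alox15, the gene of arachidonate 15-lipoxygenase. They were selected on the measured difference between the genotypes at 1 of their probe sets on these same arrays. All probe sets whose only gene symbol was that of a listed gene were taken, which gave 21 probe sets of 34945 with a single symbol, and 10 genes of 18193. The levels below are therefore a description and carry no test for the listed genes. Expression was measured on 4 Affymetrix arrays, 2 from Alox15-/- mice and 2 from wild-type (WT) mice, with the labels giving C57BL/6 (B6) as the strain and 8 weeks as the age of both. Bone marrow was sorted by flow cytometry for lineage-negative, c-Kit-positive and Sca-1-positive cells, a gate that holds haematopoietic stem cells and multipotent progenitors. The labels state neither the number of animals per sample nor any pooling, and neither the stem cell strain of the deletion nor the number of backcrosses. Values are on a log2 scale, and every difference is Alox15-/- minus WT.

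A mouse line made by gene targeting carries, around the targeted gene, a stretch of chromosome from the embryonic stem cells in which the deletion was made. Backcrossing shortens that stretch, and genes near the targeted gene are inherited with it more often than distant ones. An oligonucleotide array reads each gene through 1 or more probe sets of short probes, each set placed on its own stretch of the transcript. A reading depends on how much transcript is present, on which exons and ends it has, and on how well its bases pair with the probes.

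The gene named in the genotype went against its label. Alox15 had 1 probe set, which read 10.68 and 10.75 on the arrays labelled Alox15-/-, against 4.63 and 4.35 on the WT arrays. Both WT values lay below 27 bacterial controls' highest reading, 4.995 and 4.95 on those arrays. Set against that control, Alox15 was at least 53.5-fold higher in the arrays labelled Alox15-/- (limma adjusted p = 0.00389 over all 34945 probe sets). The labels do not say whether this probe set covers the deleted part. Whether the labels of the groups were exchanged was not tested, and an exchange would reverse every direction given here. Each direction below is that of the libraries as labelled. Across all single-symbol probe sets limma called 2 (0.00572%), Alox15 and Fam107b, a gene of chromosome 2 that is named here because the count is small, at -2.97 with limma adjusted p = 0.0478. Of the gate's own markers, Kit was high on all 4 arrays, at 10.34 and 10.23 in Alox15-/- and 10.63 and 10.48 in WT. Its groups did not overlap, with a difference of -0.27. Ly6a, the gene of Sca-1, had no probe set with it as the only symbol, so Kit alone was read for the positive side of the gate. Cd34, which is not among the gate's markers given above, read 11.62 and 11.59 in Alox15-/- and 11.59 and 11.50 in WT. With Kit and Cd34, 5 surface markers were read at their probe set of highest mean, 2 higher and 3 lower, with a median difference of -0.03. The groups did not overlap at 3 of them, against 38.5% of all genes. Slamf1 differed by 0.32 and Ptprc by -0.04 with no overlap, and Flt3 by -0.03 with overlap. The other probe sets of Slamf1 had overlapping groups. Of 6 lineage markers measured, Cd3e, Ms4a1 and Adgre1 lay below the bacterial control on all arrays at their probe set of highest mean, and Cd4, Cd8a and Itgam above it. Cd4 read 6.54 and 6.49 in Alox15-/- and 6.595 and 6.79 in WT, Cd8a 6.03 and 6.70 in Alox15-/- and 5.98 and 5.68 in WT, and Itgam 5.50 and 5.78 in Alox15-/- and 6.22 and 6.08 in WT. The groups overlapped at none of these 3, with differences of -0.18, 0.54 and -0.51, and the list's median difference was 0.04, with 3 higher and 3 lower. Other probe sets of Cd4 and Cd8a read differently. Another probe set of Cd4 differed by 0.465 with no overlap, opposite in sign. Every other probe set of Cd8a lay below the bacterial control on all 4 arrays. The Gapdh control probe sets for the transcript's 3′ and 5′ ends differed by 2.14 and 2.17 in Alox15-/- and by 2.37 and 2.39 in WT, so this measure of RNA ends moved with the genotype. The same measure for Actb overlapped, at -0.13 and -0.28 in Alox15-/- and -0.23 and -0.19 in WT. The part of these markers and of the Gapdh measure in the differences below was not tested.

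A probe set is called shifted here when its values do not overlap between the groups and its mean difference is at least 1 on the log2 scale. That held for 294 of the 34945 probe sets (0.841%), of which 123 were higher in Alox15-/- (0.352%) and 171 lower (0.489%). Among the 21 probe sets of the listed genes 9 were shifted, 7 higher and 2 lower, in 7 of the 10 genes. The groups did not overlap at 14 of the 21, against 38.4% of all single-symbol probe sets. Both counts follow in part from how the genes were chosen, so neither is a result about these genes. Just inside the size threshold lay B9d1 at 1.099, and just outside it a probe set of Trim16 at -0.96. With 2 arrays against 2 an exact permutation test cannot go below p = 0.333, so for single probe sets the distance between groups is set beside the distance between replicates. The median distance between replicates of the listed probe sets was 0.31 in Alox15-/- and 0.27 in WT, and the largest 1.28 and 1.095. Over all single-symbol probe sets the medians were smaller, 0.165 in Alox15-/- and 0.20 in WT. The listed genes were chosen for a large difference, so a distance between groups above that between replicates follows in part from that choice.

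**Figure D1:**
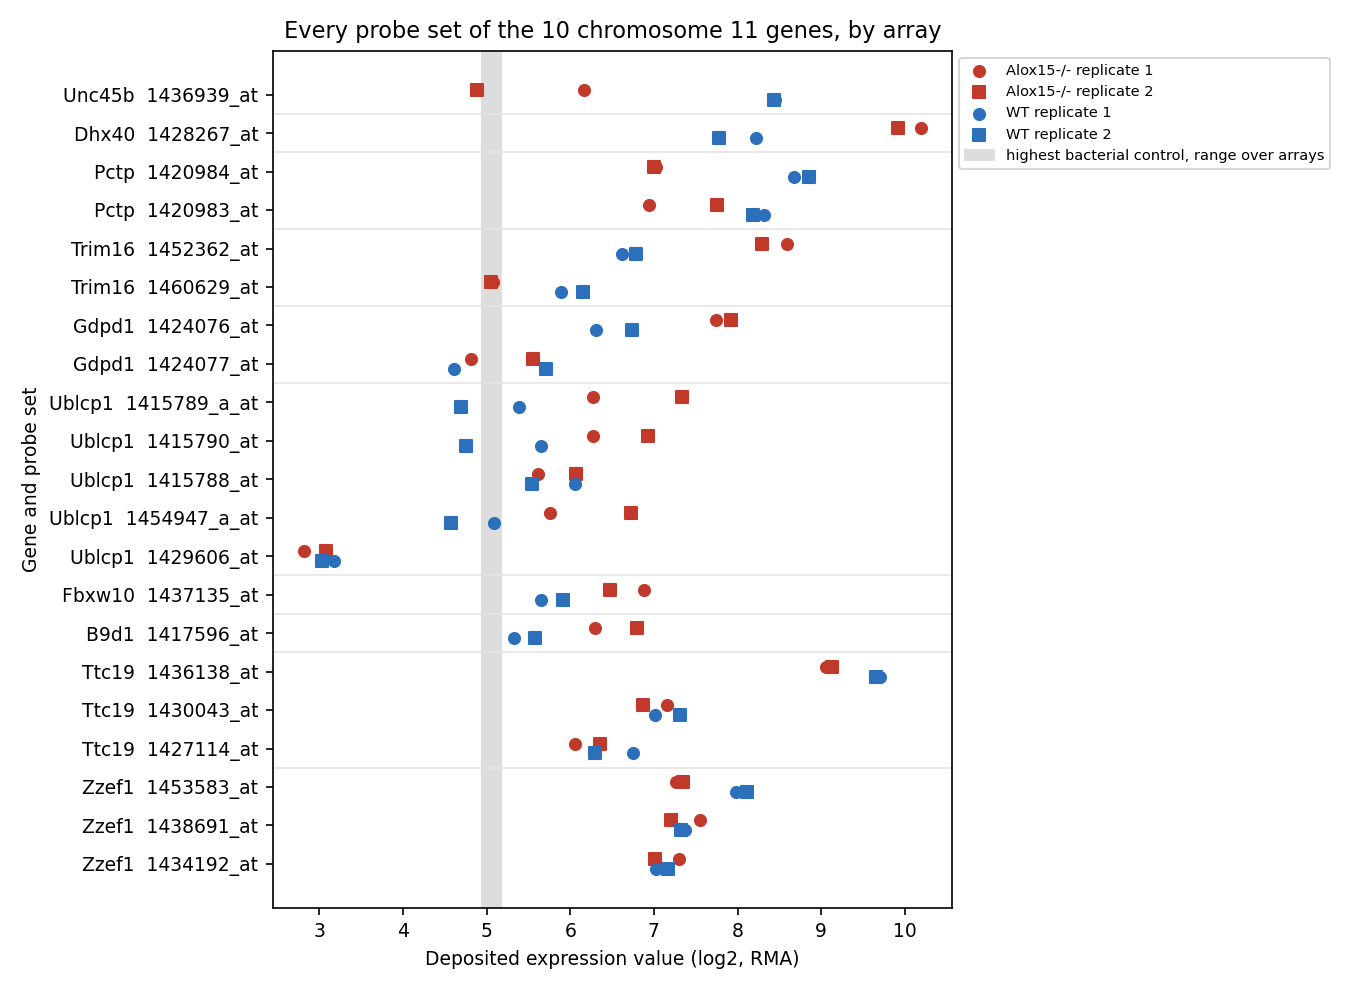
Deposited log2 values (x axis) of the 21 probe sets of the 10 genes (y axis), with 1 point per array, Alox15-/- in red above WT in blue; the grey band is the range of the highest bacterial control over the 4 arrays, 4.95 to 5.17. Red and blue points stand clear of each other at 14 probe sets, and several genes hold probe sets of both kinds.

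The stretches before the annotated start of transcription are shown for Unc45b, Dhx40, Pctp and Ublcp1, which hold the 2 largest differences in each direction among the listed genes by their largest probe set. Each holds 250 bases before and 50 after the start, 5′ to 3′ on the gene's strand, from RefSeq on build GRCm38.p6. Unc45b lies at chr11:82911003-82911302, plus strand, Dhx40 at chr11:86807611-86807910, minus strand, Pctp at chr11:90002845-90003144, minus strand, and Ublcp1 at chr11:44470499-44470798, minus strand. Capitals mark GGGCGG (the GC box), TATAAA and CCAAT on either strand.
Unc45b: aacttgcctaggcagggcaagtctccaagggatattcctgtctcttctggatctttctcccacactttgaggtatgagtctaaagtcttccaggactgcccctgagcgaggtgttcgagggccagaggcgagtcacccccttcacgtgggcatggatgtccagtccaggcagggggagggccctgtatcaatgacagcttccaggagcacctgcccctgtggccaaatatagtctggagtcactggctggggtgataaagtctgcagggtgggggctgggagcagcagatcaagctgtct
Dhx40: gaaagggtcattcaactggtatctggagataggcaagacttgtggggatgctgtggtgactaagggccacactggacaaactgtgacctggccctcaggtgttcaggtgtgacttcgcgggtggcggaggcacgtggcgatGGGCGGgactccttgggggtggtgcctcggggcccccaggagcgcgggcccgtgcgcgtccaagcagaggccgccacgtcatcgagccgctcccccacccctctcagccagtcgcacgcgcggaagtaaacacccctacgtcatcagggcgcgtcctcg
Pctp: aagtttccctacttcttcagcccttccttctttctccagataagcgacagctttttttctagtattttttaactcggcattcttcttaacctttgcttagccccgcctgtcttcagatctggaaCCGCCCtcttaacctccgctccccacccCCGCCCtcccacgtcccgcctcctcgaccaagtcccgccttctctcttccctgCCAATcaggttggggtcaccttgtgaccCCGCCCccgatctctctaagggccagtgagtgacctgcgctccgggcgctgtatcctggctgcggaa
Ublcp1: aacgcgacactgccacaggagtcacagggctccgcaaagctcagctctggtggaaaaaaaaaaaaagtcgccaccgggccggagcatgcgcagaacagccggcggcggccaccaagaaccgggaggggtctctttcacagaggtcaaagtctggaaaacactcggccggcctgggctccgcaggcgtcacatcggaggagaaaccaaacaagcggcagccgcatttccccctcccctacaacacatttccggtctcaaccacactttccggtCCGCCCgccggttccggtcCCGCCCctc
Unc45b, the muscle gene of the set, held 0 matches to these motifs and 4 CG pairs, while the median promoter of the RefSeq table held 7 CG pairs. Dhx40 held 1 GC box and 24 CG pairs, Pctp 3 GC boxes, 1 CCAAT and 16 CG pairs, and Ublcp1 2 GC boxes and 25 CG pairs. Of 32817 promoters of that length in the table, 35.6% held GGGCGG, 37.4% CCAAT and 13.6% TATAAA. No match overlapped another in these 4 windows, and a match is a description of these letters only. The 4 windows thus have no motif in common, and the 2 genes that read lower, Unc45b and Pctp, differ in both their motifs and their CG pairs.

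Unc45b encodes a co-chaperone of HSP90 that folds the heads of muscle myosin and is known from skeletal and heart muscle. Its single probe set read 6.16 and 4.88 in Alox15-/-, against 8.45 and 8.43 in WT. Both WT arrays lay far above both Alox15-/- arrays, the WT arrays lay close together, and Alox15-/- replicate 2 was below the bacterial control. The difference was -2.92, a reading 7.57-fold lower in Alox15-/-, with means of 5.52 ± 0.91 in Alox15-/- and 8.44 ± 0.01 in WT (SD, n = 2 each). Dhx40, a DEAH-box helicase placed with the enzymes that remodel RNA, also had 1 probe set. It read 10.19 and 9.92 in Alox15-/-, against 8.22 and 7.78 in WT. Both Alox15-/- arrays were higher by at least 1.71, several times the distance between replicates, and the difference of 2.06 is a 4.17-fold higher reading. With 1 probe set each, neither gene has a second reading on these arrays.

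Pctp and Gdpd1 act on phospholipids. Pctp encodes a START-domain protein that carries phosphatidylcholine between membranes. Its first probe set read 7.03 and 7.0 in Alox15-/-, against 8.67 and 8.86 in WT, a difference of -1.75. The second read 6.94 and 7.76 in Alox15-/-, against 8.32 and 8.18 in WT, a difference of -0.90. Both probe sets were lower on both Alox15-/- arrays than on either WT array, but the second rested more on Alox15-/- replicate 1, without which its difference was -0.49. Gdpd1 encodes a glycerophosphodiesterase that releases N-acylethanolamines and lysophosphatidic acid from lysophospholipids. One of its probe sets read 7.74 and 7.92 in Alox15-/-, against 6.31 and 6.74 in WT, a difference of 1.31. The other read 4.81 and 5.56 in Alox15-/-, against 4.61 and 5.71 in WT, a difference of 0.02. At the second the groups overlapped fully and 1 array of each group lay below the bacterial control.

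Trim16, Fbxw10 and Ublcp1 belong to ubiquitin and proteasome biology. Trim16 is a ubiquitin ligase of the TRIM family that takes part in the removal of damaged lysosomes, and its probe sets pointed in opposite directions. The first read 8.59 and 8.29 in Alox15-/-, against 6.62 and 6.78 in WT, a difference of 1.74. The second read 5.08 and 5.05 in Alox15-/-, against 5.89 and 6.16 in WT, a difference of -0.96. Neither had overlap between the groups, so the same 4 samples gave a clear higher and a clear lower reading for 1 gene, and at the second both Alox15-/- arrays lay below the bacterial control. Fbxw10 encodes an F-box protein with WD repeats, the part of an SCF ubiquitin ligase that picks substrates. At its single probe set it read 6.89 and 6.48 in Alox15-/-, against 5.65 and 5.92 in WT, a difference of 0.90 with no overlap. Fbxw10 and Trim16 are next to each other on chromosome 11, with 0 protein-coding genes between them.

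Ublcp1 encodes a phosphatase with a ubiquitin-like domain that binds and dephosphorylates the proteasome in the nucleus. It had 5 probe sets, the most of the 10 genes. At 3 of them the groups stood apart, the first reading 6.28 and 7.33 in Alox15-/-, against 5.39 and 4.69 in WT, a difference of 1.77. Another read 6.28 and 6.93 in Alox15-/-, against 5.65 and 4.76 in WT, a difference of 1.40. The next read 5.76 and 6.72 in Alox15-/-, against 5.09 and 4.57 in WT, a difference of 1.41. On all 3 the order of the 4 arrays was the same, with Alox15-/- replicate 2 highest and WT replicate 2 lowest, and WT replicate 2 lay below the bacterial control. At a further probe set the groups overlapped at 5.62 and 6.06 in Alox15-/- and 6.05 and 5.54 in WT, a difference of 0.05. The last, at 2.82 and 3.08 in Alox15-/- and 3.17 and 3.03 in WT, was below the bacterial control on all 4 arrays, with a difference of -0.15. No other listed gene had more than 1 shifted probe set.

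B9d1 and Ttc19 serve the cilium and the mitochondrion. B9d1 encodes a protein of the transition zone at the base of the primary cilium. Its single probe set read 6.30 and 6.79 in Alox15-/-, against 5.32 and 5.57 in WT, a difference of 1.099 with no overlap, and of 0.85 without Alox15-/- replicate 2. Ttc19 encodes a mitochondrial protein needed for respiratory complex III. At its first probe set it read 9.06 and 9.13 in Alox15-/-, against 9.71 and 9.66 in WT, a difference of -0.59. The replicates of each group were within 0.07 of each other there, so a modest difference still left the groups well apart. Its other probe sets, at 7.15 and 6.87 in Alox15-/- against 7.02 and 7.32 in WT, and at 6.05 and 6.36 in Alox15-/- against 6.75 and 6.29 in WT, had overlapping groups and differences of -0.15 and -0.32. All 3 thus had the same sign.

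Zzef1, which encodes a protein with ZZ-type zinc fingers and an EF-hand, is the listed gene nearest to Alox15. One probe set read 7.27 and 7.35 in Alox15-/-, against 7.98 and 8.11 in WT, a difference of -0.74 with no overlap. The others read 7.55 and 7.21 in Alox15-/- against 7.38 and 7.33 in WT, and 7.30 and 7.02 in Alox15-/- against 7.03 and 7.16 in WT. Their differences were 0.03 and 0.06 and their groups overlapped. None of the 3 lay below the bacterial control on any array.

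Agreement between probe sets was counted for genes with at least 1 shifted probe set and at least 1 further probe set. A gene agreed when all its differences had the same sign and none was under 0.5 times its largest. Of the listed genes 4 could be counted, and 1 agreed, Pctp. Trim16 held both signs at probe sets without overlap, and Ublcp1 only through the probe set that lay below the bacterial control on all 4 arrays, from which no direction can be read. Without Alox15-/- replicate 1 or WT replicate 1 Pctp no longer met the criterion, which left 0 of the listed genes. Of the other chromosome 11 genes 3 of 19 agreed (15.8%) and 5 held both signs (26.3%). On all other chromosomes 13 of 183 agreed (7.1%) and 97 held both signs (53.0%). These counts include probe sets below the bacterial control. Genes entered them through 1 extreme probe set, so a smaller difference at the others follows in part from that choice, and the 3 shares are given as a description. Whether the probes lie on different exons or over bases that differ between strains was not tested, since probe sequences were not used here.

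**Figure D2:**
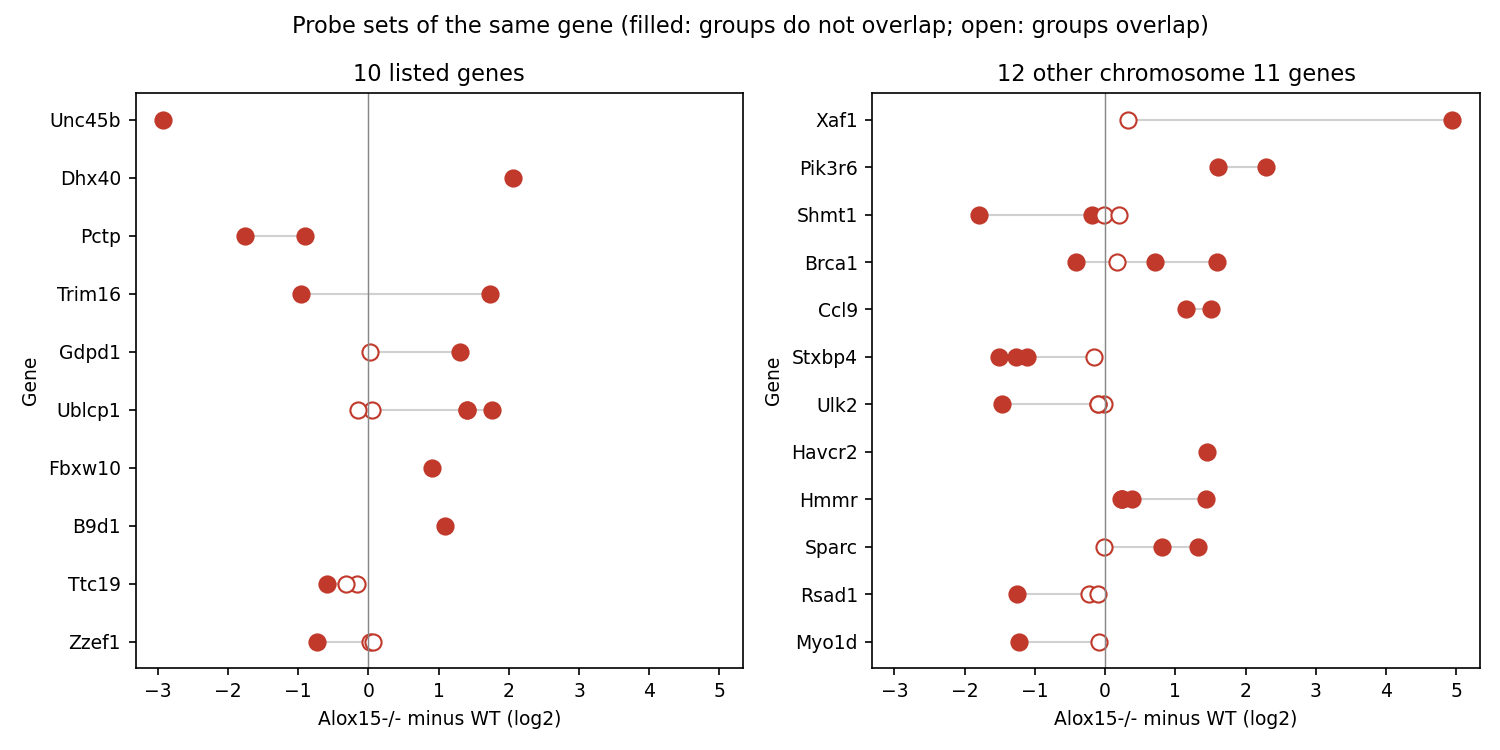
Difference Alox15-/- minus WT on the log2 scale (x axis) at every probe set of the 10 listed genes (left) and of the 12 other chromosome 11 genes with the largest shifted probe set (right); filled points have no overlap between groups, open points overlap, and a line joins probe sets of 1 gene. Trim16 spans -0.96 to 1.74, and Xaf1 spans 0.32 to 4.94.

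On the chromosome 5 of the listed genes lie before Alox15 and 5 after it, in the gene order of the RefSeq table. Distances are given in protein-coding genes between, since the deposited table names no genome build. Zzef1 was nearest, with 55 genes between it and Alox15. On the other side Fbxw10 had 123 genes between, Trim16 124, Ttc19 134 and B9d1 145, and these form a cluster. Beyond Alox15 Unc45b had 242 between, Dhx40 300, Gdpd1 302 and Pctp 339, and Dhx40 and Gdpd1 have 1 gene between them. Ublcp1 was the most distant, with 411 between. Among the listed genes the largest difference, that of Unc45b, lies beyond 242 genes, and the nearest gene, Zzef1, had 1 of the smallest. Since the listed genes were chosen on the size of their difference, whether size follows distance cannot be read from them.

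Other genes of chromosome 11 gave the setting. Of 1432 with a single-symbol probe set, Alox15 and the listed genes left out, 25 had at least 1 shifted probe set (1.75%), against 236 of 16589 genes on all other chromosomes (1.42%) and 1.5% of all genes. Their 29 shifted probe sets were 16 higher and 13 lower. With the listed genes and Alox15 counted, the share was 2.29% on chromosome 11, the second among 20 chromosomes, below the 2.59% of chromosome 9. The shifted genes were unevenly spread along chromosome 11: 22 of 790 within 400 measured genes of Alox15 on either side (2.78%) and 3 of 642 further away (0.467%), namely Brca1, Cyb561 and Retreg3. That distance was chosen with the values known, and the listed genes all lie inside it. Of the 50 measured genes directly before Alox15 0 were shifted, and of 49 directly after it 3 were, Xaf1 and the clones 4930563E22Rik and 6330403K07Rik.

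**Figure D3:**
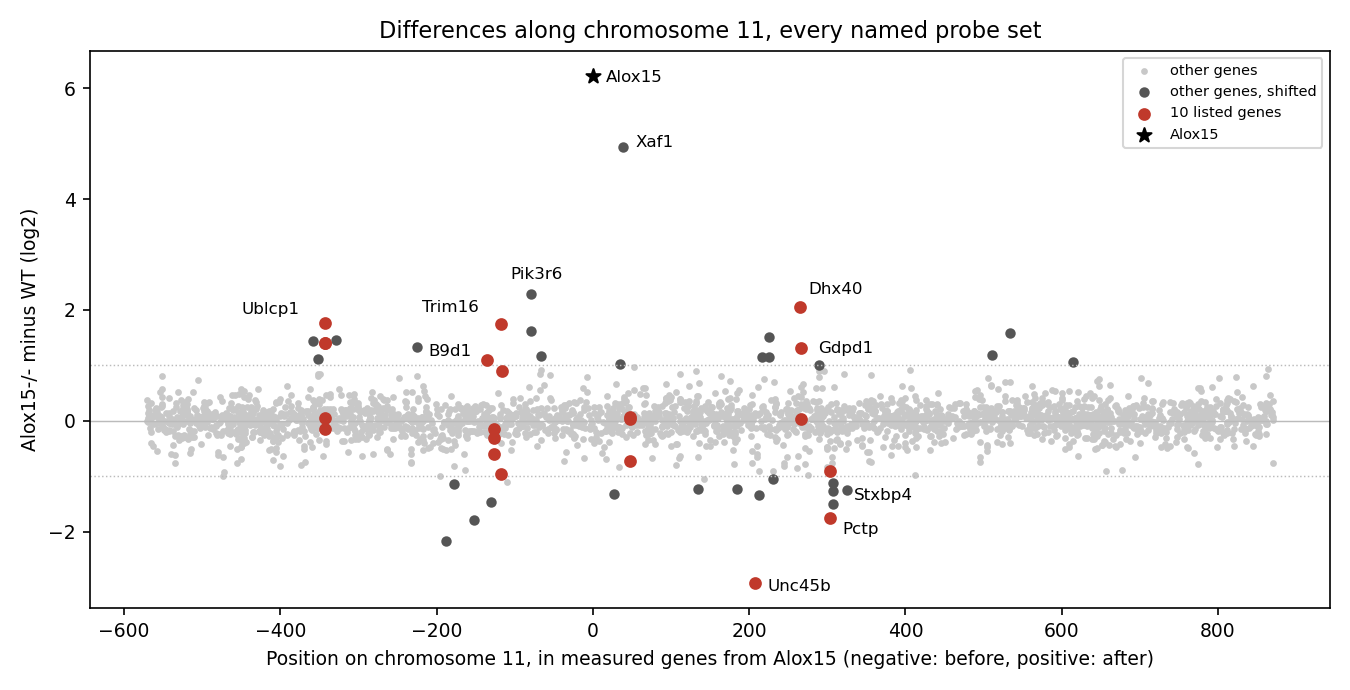
Difference Alox15-/- minus WT on the log2 scale (y axis) for every single-symbol probe set of chromosome 11, by its gene's place in measured genes from Alox15 (x axis); red points are the listed genes, dark grey points other shifted genes, the star Alox15, and dotted lines mark differences of 1 and -1. Beyond 400 measured genes from Alox15 3 other genes pass the lines with no overlap, against 22 nearer to it.

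Xaf1, an interferon-induced antagonist of the apoptosis inhibitor XIAP, had the largest difference on the chromosome after Alox15. At 1 probe set it read 10.47 and 10.29 in Alox15-/-, against 5.08 and 5.80 in WT, a difference of 4.94 (limma adjusted p = 0.0596). Its other probe set read 8.59 and 8.83 in Alox15-/-, against 8.09 and 8.69 in WT, a difference of 0.32 with overlapping groups. Xaf1 lies near Zzef1, with 10 protein-coding genes between them, and like it has 1 probe set that separates the groups beside another that does not, though that of Xaf1 read higher in Alox15-/- and that of Zzef1 lower. The PI3-kinase gamma adaptor gene Pik3r6 had differences of 2.29 and 1.61 at its 2 probe sets. WT replicate 1 lay below the bacterial control at both, and without it the differences were 1.59 and 0.97. Shmt1, the cytosolic serine hydroxymethyltransferase, differed by -1.79 at 1 probe set, and by -0.19, -0.02 and 0.19 at its other 3. Ulk2, an autophagy kinase with 4 protein-coding genes between it and Ttc19, differed by -1.47 at 1 probe set, at which both Alox15-/- arrays lay below the bacterial control, and by -0.02 to -0.10 at its other 3.

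Stxbp4, a syntaxin-binding protein gene with 3 protein-coding genes between it and Pctp, was shifted at 3 of its 4 probe sets. Its probe sets differed by -1.27, -1.12 and -1.51 with no overlap, and by -0.16 with overlap at the last, and the reading of -1.51 was -0.92 without Alox15-/- replicate 1 and that of -1.12 was -0.96 without WT replicate 2. The first read 7.32 and 7.52 in Alox15-/-, against 8.55 and 8.84 in WT. Pctp and Stxbp4 gave 5 probe sets without overlap, all lower in Alox15-/-, where 38.4% of all single-symbol probe sets had no overlap. Both genes were chosen for a large difference, so this count follows in part from that choice. The chemokine gene Ccl9 differed by 1.16 and 1.51 at its 2 probe sets. Brca1 ran from -0.41 to 1.59 over 4 probe sets, Hmmr from 0.22 to 1.44 over 5 and Sparc from -0.02 to 1.32 over 3. Leaving out WT replicate 2 brought the 1.32 of Sparc to 0.91, and leaving out Alox15-/- replicate 1 brought it to 0.94. Havcr2, with 1 probe set, differed by 1.46, and by 0.72 without WT replicate 2. Rsad1 at -1.25 and Myo1d at -1.23, or -0.68 and -0.85 without WT replicate 1, were below the bacterial control on all 4 arrays at their shifted probe sets. Limma adjusted p at the shifted probe sets of these 11 genes other than Xaf1 ran from 0.306 to 0.616, and none passed the threshold.

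The closest neighbours of the listed genes were read as well, taking the 5 measured genes on each side. Together they were 78 genes with 155 probe sets, of which 4 were shifted, 3 of Stxbp4 and 1 of Ulk2. The groups did not overlap at 45.2% of the 155, against 38.4% of all single-symbol probe sets. The share was higher around Gdpd1 (68.4%), Dhx40 (65.0%), Unc45b (61.9%) and Pctp (56.5%), which lie on the same side of Alox15 and of which Dhx40 and Gdpd1 share most neighbours. It was 16.7% around B9d1, 28.6% around Fbxw10 and 31.6% around Ublcp1. Apart from Stxbp4 and Ulk2, the largest difference at a neighbour was 0.96 in size, near Zzef1. Listed genes apart, no neighbour of Unc45b, Dhx40, Gdpd1, Trim16 or Ublcp1 within that range was shifted.

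Relatives and partners of 9 of the listed genes were read as well, at the probe set of highest mean per gene, and 20 of the 121 measured lie on chromosome 11 themselves, Myh10, Myh3, Dhx58, Trim25, Tmem17, Uqcrq and Uqcr10 among those named below. Of the 121 genes 64 were higher and 57 lower, 50 had no overlap between groups (41.3%, against 38.5% of all genes), 0 were shifted (0.715% of all genes) and limma called 0 of them, with 1414 of 18193 genes at an unadjusted p under 0.05 in a fit of that kind. Their median difference was 0.02, the same as over all genes. Partners of UNC45B in myosin folding had a median of -0.03 over 7 genes. The non-muscle myosin gene Myh10 was at 0.19 with overlapping groups, the muscle myosin gene Myh3 at -0.14 and Hsp90aa1 at 0.12. DEAH-box helicases had -0.14 over 15, with Dhx35 at 0.62, Dhx58 at -0.39 and Dhx16 at -0.30. START-domain and phosphatidylcholine genes had -0.03 over 19, with the acyltransferase gene Lpcat3 at 0.32, where the groups overlapped, and Stard4 at -0.30.

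Glycerophosphodiesterases and genes of N-acylethanolamine turnover had a median of 0.15 over 8, with Napepld, which makes N-acylethanolamines, at 0.45 and Naaa, which degrades them, at 0.39. Of the TRIM family 12 were higher and 12 lower, with Trim24 at -0.80, where its other 2 probe sets had the opposite sign, and Trim25 at -0.48. SCF ligase and FBXW genes had 0.07 over 12, with the substrate receptor genes Fbxw2 at -0.33, Fbxw5 at -0.32 and Fbxw7 at 0.32, none with overlap. Of the other 6 probe sets of Fbxw2 the only 2 without overlap were higher in Alox15-/-, by 0.09 and 0.52. Base subunits of the proteasome, the complex on which UBLCP1 acts, were all 9 higher, by 0.01 to 0.24, and 5 of them had no overlap. Over all genes 9773 of 18193 were higher and 38.5% had no overlap. Whether these small differences go with Ublcp1 was not tested. Transition zone genes had 0.02 over 13, with Tmem17 at 0.46, where the groups overlapped, and Tmem216 at -0.39, where they did not. The other probe sets of Tmem17 and Tmem216, at -0.01 and 0.07, had overlapping groups. Complex III genes had -0.04 over 14, from -0.27 for Uqcr10, where the groups overlapped, to 0.37 for Uqcrq. Another probe set of Uqcrq, above the bacterial control on all arrays, read -0.53 with no overlap. No list held a shifted probe set at any of its genes, while 1.5% of all genes held at least 1, too small a share for 121 genes to be set apart from it.

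**Figure D4:**
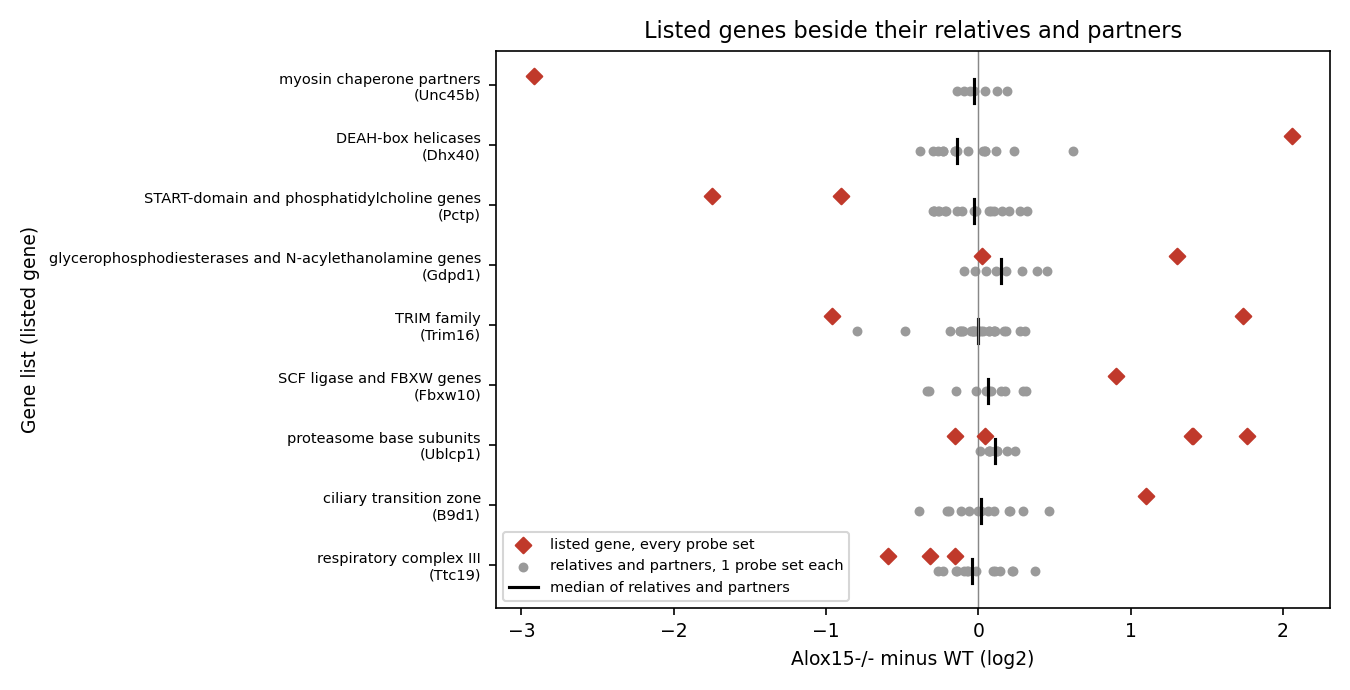
Difference Alox15-/- minus WT on the log2 scale (x axis) for 9 of the listed genes (red diamonds, every probe set) beside their relatives and partners (grey points, 1 probe set per gene, black bar for the median), by list (y axis). Grey points lie between -0.80 and 0.62. The listed genes were chosen for a large difference, so the wider spread of the red diamonds follows in part from that choice.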

How the data were processed

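The 4 arrays, 2 labelled Alox15-/- and 2 labelled WT, were grouped by their titles. The deposited log2 values came from RMA in Affymetrix Expression Console 1.1, per the submitters' processing notes; RMA subtracts background, quantile-normalizes the arrays and gives 1 value per probe set. The titles call the 2 arrays of each group biological replicates, without saying whether they came from separate animals. The number of arrays limits the precision, and p-values measure only the spread between these samples. Probe sets were named by the platform annotation: 34945 had 1 symbol, 932 several and 9160 none, with 64 controls left out. Gene order came from the RefSeq table of GRCm38.p6, which matched 34741 named probe sets. Limma 3.58.1 in R 4.3.3 (lmFit, eBayes, two-sided, no block, Benjamini-Hochberg over all named probe sets, threshold 0.05) was tested on simulated data. The genes and lists were chosen with earlier results of these data known. Named besides the listed genes were Alox15, cell markers, the 12 other chromosome 11 genes with the largest shifted probe set, clones and predicted genes left out, and up to 3 genes per list by size. Same-numbered replicates did not deviate together (correlation -0.018 over probe sets).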

Additional observations from a re-analysis of the deposited data

How the results depend on the processing

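Quantile normalization again, median centring and cyclic loess moved no difference of a listed probe set by more than 0.0339 and left 9 of their probe sets shifted. That count was 7 at the probe set of highest mean per gene, 14 with a size threshold of 0.5 and 5 with 1.5, and 9 without any 1 array, though not always the same 9. Without Alox15-/- replicate 1 all 9 were shared, without WT replicate 1 or WT replicate 2 8 were, and without Alox15-/- replicate 2 7 were. B9d1 was lost without WT replicate 1 or Alox15-/- replicate 2, and Ublcp1 lost 1 probe set without WT replicate 2 and another without Alox15-/- replicate 2, while Trim16, Fbxw10 and Pctp gained 1 each in some of these. Over all named probe sets 190 were shifted with the lowest 30 percent left out, 130 at the probe set of highest mean, 2282 with a threshold of 0.5, 49 with 1.5, and 495 to 622 without 1 array. For the other chromosome 11 genes the counts were 12 at the probe set of highest mean, 200 with a threshold of 0.5, 8 with 1.5 and 43 to 52 without 1 array. Fewer arrays or a lower threshold make the criterion easier to meet by construction. Without 1 array 0 to 1 listed genes agreed across probe sets, and that count cannot be formed with 1 probe set per gene. Limma called 1 with the probe set of highest mean, 21 with a mean-dependent prior variance, and 0 without any 1 array, where 1792 to 2948 had an unadjusted p under 0.05 and the lone array was assumed to vary like the other group. With the replicate number as a block limma called 1, and 303 named, 9 listed and 30 other chromosome 11 probe sets were shifted by pairs; the labels state no pairing. Of the shifted listed probe sets, without 1 array Unc45b ran from -3.56 to -2.28, Ublcp1 from 0.93 to 2.30 over its 3, and B9d1 from 0.85 to 1.35; 0 changed sign. Of the overlapping ones 4 did. No difference of a shifted probe set was reversed under these settings.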
